A study of Homo sapiens with 6 samples.

Results

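The genes described here are 10 components of the N6-methyladenosine (m6A) system, namely the methyltransferase subunits METTL3, METTL14 and WTAP (writers), the demethylases FTO and ALKBH5 (erasers), and the YTH-domain proteins YTHDF1, YTHDF2, YTHDF3, YTHDC1 and YTHDC2 (readers). Their rows were found by gene name in a table of 58825 genes, and all 10 were present with 1 row each. The set was chosen on values of the contrast described below, since YTHDF3 was already known to have one of its smaller p-values, so the members' differences between the groups are given as a description. The study silenced PTBP1, an RNA-binding regulator of alternative splicing, in MHCC97H, a cell line established from human hepatocellular carcinoma. RNA was sequenced in 3 libraries labelled shPTBP1, with a short hairpin RNA against PTBP1 and the genotype given as a knockdown, and in 3 labelled shControl, with the genotype given as WT and no other allele or agent named in either group. Which PTBP1 hairpin was used, whether the cells were a pool or a clone, and whether replicates of a group were separate cultures are not given in the sources used here, so p-values measure only the spread between these libraries.

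m6A is the most abundant internal modification of messenger RNA. A nuclear complex built on METTL3 and METTL14 deposits it, FTO and ALKBH5 can remove it by oxidation, and proteins with a YTH domain bind it and steer the transcript towards splicing, export, translation or decay. Only the abundance of the transcripts was measured here, and neither m6A itself nor the proteins.

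The libraries held between 68704509 and 85317970 estimated counts, and the members had between 953 and 9592 estimated counts per library. PTBP1, the targeted gene, had 17.3, 16.9 and 18.0 FPKM (fragments per kilobase of transcript, scaled to a depth of 1e+06 fragments) in shPTBP1 1, 2 and 3, against 21.2, 16.4 and 27.4 FPKM in shControl 1, 2 and 3. The groups overlapped, because shControl 2 lay below all 3 shPTBP1 libraries, and the log2 fold change was -0.29 (standard error 0.18, adjusted p = 0.953, edgeR). The target gene therefore did not separate the groups, and shPTBP1 and shControl below name libraries as labelled. The study also assayed PTBP1 by western blot and RT-qPCR after hairpin transfection of this line, and those measurements were not analysed here. Of 10 markers of a hepatocellular line, ALB, AFP, APOB and TTR were at 0 in every library and 8 averaged under 1 FPKM, so the summed level of 621 to 831 CPM (counts per 1e+06 counts, scaled by TMM) was carried by KRT8 and KRT18. Across genes, correlations of log2 levels between shControl 3 and each shPTBP1 library were 0.972, 0.970 and 0.973, higher than those of 0.955 and 0.961 between shControl 3 and the other libraries of its own group. Red-cell markers summed to 849, 759 and 1.15 CPM in shPTBP1 1, 2 and 3 and to 1279, 800 and 1.32 CPM in shControl 1, 2 and 3, which divided the libraries numbered 3 from the others in both groups. Neutrophil and monocyte markers (0.167 to 20.5 CPM in shPTBP1 and 0.17 to 31.3 CPM in shControl) and lymphocyte markers (0 to 3.56 CPM in shPTBP1 and 0.212 to 3.98 CPM in shControl) were likewise lowest in the libraries numbered 3. In such bulk RNA, a larger number of cells of a type and more RNA per cell cannot be told apart.

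YTHDF3 was the member with the clearest difference, 2.73-fold higher in shPTBP1 on the edgeR estimate and higher in each shPTBP1 library than in any labelled shControl. YTHDF2 was 1.93-fold higher, but its shControl libraries divided into 2 low values and 1 at the shPTBP1 level. FTO varied between libraries in both groups, and the other 7 members were nearly level. In the fit across 19393 genes, 0 of the 10 members passed an adjusted p of 0.05, where 0.0309% of all genes tested did. At an unadjusted p under 0.05, 1 member, YTHDF3, was counted, beside 5.69% of all genes (1104 genes). YTHDF3 was also the 1 member whose groups did not overlap, beside 11.9% of all genes. With DESeq2, 1 of the 10 members passed an adjusted p of 0.05, again YTHDF3, beside 0.753% of the 22297 genes to which it gave an adjusted p. The median log2 fold change was 0.06 over the members and -0.01 over all genes tested.

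**Figure D1:**
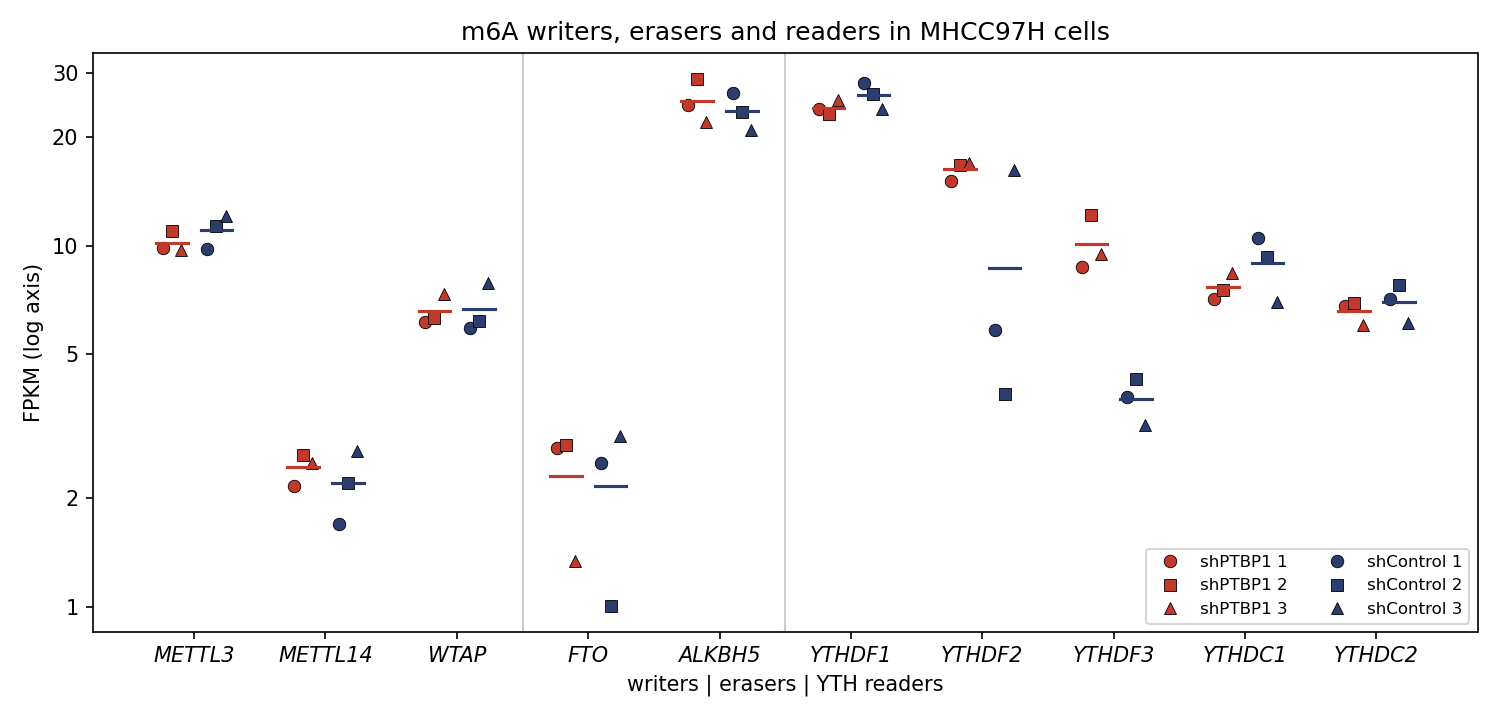
FPKM (log axis) of the 10 members in the 3 shPTBP1 libraries (red) and the 3 shControl libraries (blue), with the mean of each group as a line and the marker shape giving the library number. The YTHDF3 points form separate groups of 8.72 to 12.2 FPKM in shPTBP1 and 3.18 to 4.28 FPKM in shControl, whereas for YTHDF2 shControl 3 sits beside the shPTBP1 libraries.

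The writers showed little difference. METTL3, the catalytic subunit, had 9.86, 10.95 and 9.70 FPKM in shPTBP1 1, 2 and 3, against 9.76, 11.31 and 12.05 FPKM in shControl 1, 2 and 3. METTL14, the partner that holds the RNA substrate, had 2.16, 2.64 and 2.51 FPKM in shPTBP1, against 1.7, 2.2 and 2.7 FPKM in shControl. Both genes overlapped between the groups, at log2 fold changes of -0.09 ± 0.11 and 0.18 ± 0.19 (± standard error throughout for fold changes). WTAP, the adaptor that places the complex in nuclear speckles, had 6.14, 6.30 and 7.33 FPKM in shPTBP1 and 5.93, 6.20 and 7.86 FPKM in shControl. Its number-3 library was the highest in each group, and its log2 fold change was 0.01 ± 0.14, with a sign that turned under 7 of 17 alternatives. The ratio of METTL3 to METTL14 FPKM was 4.56, 4.15 and 3.86 in shPTBP1 and 5.74, 5.14 and 4.46 in shControl, so METTL3 was the more abundant transcript per length in every library. The mean ratios were 4.19 ± 0.352 in shPTBP1 and 5.12 ± 0.640 in shControl (SD, n = 3 each), and the ranges overlapped. In hg38, as in the deposited table, METTL3 lies at chr14:21498133-21511342 on the minus strand, METTL14 at chr4:118685392-118715430 and WTAP at chr6:159725585-159756319, both on the plus strand.

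The erasers differed from each other more than either differed between the groups. ALKBH5, a nuclear demethylase, had 24.5, 28.8 and 21.9 FPKM in shPTBP1 1, 2 and 3, against 26.45, 23.5 and 20.9 FPKM in shControl 1, 2 and 3. FTO, which also acts on the methylated cap-adjacent adenosine, had 2.76, 2.80 and 1.34 FPKM in shPTBP1 and 2.51, 1.01 and 2.98 FPKM in shControl. FTO thus had 1 low library in each group, shPTBP1 3 and shControl 2, and the other libraries lay at 2.51 to 2.98 FPKM. Its log2 fold change of 0.11 ± 0.43 was smaller than its standard error, and that of ALKBH5 was 0.11 ± 0.14. The sign for FTO turned under 3 of the 17 alternatives, each leaving out 1 library (shPTBP1 1, shPTBP1 2 or shControl 2). ALKBH5 exceeded FTO in FPKM by ratios of 8.88, 10.3 and 16.4 in shPTBP1 and 10.5, 23.2 and 7.00 in shControl. Red-cell markers were at 1.15 CPM in shPTBP1 3 and at 800 CPM in shControl 2, and their part in the FTO levels was not tested. ALKBH5 lies at chr17:18183078-18209954 and FTO at chr16:53701692-54153448 of hg38, both on the plus strand.

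Among the readers, YTHDF1, YTHDF2 and YTHDF3 are closely related cytoplasmic proteins. YTHDF2 recruits the CCR4-NOT deadenylase to m6A-bearing messages, YTHDF1 has been linked to their translation, and YTHDF3 has been placed in both processes. The proximal promoters of YTHDF1, which was steady, and of YTHDF2, which differed most between libraries, are shown for comparison. They are RefSeq windows on GRCh38.p14 of 250 bases before and 50 after a transcription start, written on the sense strand with the CCAAT box, or its reverse complement, in capitals.
YTHDF1 (chr20:63216082-63216381, minus strand): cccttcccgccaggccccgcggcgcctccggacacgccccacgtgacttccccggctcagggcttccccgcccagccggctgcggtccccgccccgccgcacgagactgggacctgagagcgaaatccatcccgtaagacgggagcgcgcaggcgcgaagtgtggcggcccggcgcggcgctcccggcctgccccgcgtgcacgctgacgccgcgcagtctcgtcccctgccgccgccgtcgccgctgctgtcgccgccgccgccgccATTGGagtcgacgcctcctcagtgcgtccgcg
YTHDF2 (chr1:28736690-28736989, plus strand): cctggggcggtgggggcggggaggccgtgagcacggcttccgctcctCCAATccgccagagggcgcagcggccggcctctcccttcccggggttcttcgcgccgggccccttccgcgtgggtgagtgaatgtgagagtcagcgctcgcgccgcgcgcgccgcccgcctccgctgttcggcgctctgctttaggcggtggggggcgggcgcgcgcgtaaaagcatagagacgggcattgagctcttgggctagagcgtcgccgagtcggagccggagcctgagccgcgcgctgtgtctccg

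YTHDF3 had 8.72, 12.2 and 9.45 FPKM in shPTBP1 1, 2 and 3, against 3.82, 4.28 and 3.18 FPKM in shControl 1, 2 and 3. The lowest shPTBP1 library was thus above the highest shControl library, and the means were 10.1 ± 1.82 FPKM in shPTBP1 and 3.76 ± 0.552 FPKM in shControl (SD, n = 3 each). In CPM, YTHDF3 had 64.4, 89.3 and 70.7 in shPTBP1 and 28.2, 31.1 and 22.8 in shControl. Number 2 was the highest library within each group. The log2 fold change was 1.45 ± 0.18 (unadjusted p = 6.57e-05, adjusted p = 0.131, edgeR's quasi-likelihood test with Benjamini-Hochberg adjustment), so YTHDF3 was not past the adjusted threshold in this fit. It was past it with DESeq2 (1.45 ± 0.21, adjusted p = 8.87e-09), and over the 17 alternatives its log2 fold change was 1.22 to 1.55 with adjusted p between 8.87e-09 and 0.416. The gene lies on chromosome 8 of hg38 from 63168553 to 63212786 on the plus strand, with 16 annotated transcripts, and the deposited values do not separate them.

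YTHDF2 had 15.1, 16.7 and 16.9 FPKM in shPTBP1 1, 2 and 3, against 5.84, 3.89 and 16.2 FPKM in shControl 1, 2 and 3. Only shControl 1 and 2 were low, while shControl 3 lay within the range of the shPTBP1 libraries. The means were 16.2 ± 1.01 FPKM in shPTBP1 and 8.64 ± 6.61 FPKM in shControl (SD, n = 3 each), and the log2 fold change of 0.95 ± 0.47 was not past the threshold (adjusted p = 0.932, edgeR). The call for YTHDF2 depended on shControl 3. Without that library its log2 fold change was 1.75 ± 0.20 (adjusted p = 0.0373, edgeR). That of YTHDF3 was then 1.33 ± 0.17 (unadjusted p = 0.000222, adjusted p = 0.0447, edgeR). For YTHDF3 this was a smaller fold change and a larger unadjusted p than in the main fit (1.45 and 6.57e-05, edgeR). So 2 of the 10 members were called, beside 0.674% of the 20167 genes then tested. An unadjusted p under 0.05 was reached by 16.6% of those genes, against 5.69% in the main fit (edgeR). Within numbers 1 and 2, which had red-cell markers in both groups, the log2 fold changes of YTHDF2 and YTHDF3 were 1.71 ± 0.23 and 1.37 ± 0.19. Each had adjusted p = 0.0815 (edgeR). Over the 17 alternatives the log2 fold change of YTHDF2 was 0.60 to 1.75, with adjusted p between 0.0373 and 1.000. Red-cell markers were near 0 both in shPTBP1 3 and in shControl 3, and their part in the YTHDF2 levels was not tested.

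YTHDF1 was steady by comparison, at 23.8, 23.2 and 25.2 FPKM in shPTBP1 1, 2 and 3 and 28.1, 26.3 and 23.9 FPKM in shControl 1, 2 and 3. The groups overlapped through shControl 3, and the log2 fold change was -0.09 ± 0.11. Summed over the 3 paralogs, YTHDF mRNA came to 47.6, 52.1 and 51.6 FPKM in shPTBP1 and to 37.8, 34.4 and 43.2 FPKM in shControl, and every shPTBP1 sum lay above every shControl sum. The mean sums were 50.4 ± 2.43 FPKM in shPTBP1 and 38.5 ± 4.43 FPKM in shControl (SD, n = 3 each). YTHDF3 made up 18.3%, 23.4% and 18.3% of the sum in shPTBP1 and 10.1%, 12.4% and 7.36% in shControl, a difference of 10.04 percentage points between the means of 20% ± 2.92 in shPTBP1 and 9.96% ± 2.54 in shControl (SD, n = 3 each). YTHDF2 made up 31.7%, 32.1% and 32.8% in shPTBP1 and 15.5%, 11.3% and 37.5% in shControl. By this measure per length, YTHDF1 was the most abundant paralog in all 6 libraries, with 44.5% to 50.03% of the sum in shPTBP1 and 55.2% to 76.3% in shControl. For the other pair, FPKM of YTHDF2 exceeded that of YTHDF3 in 5 of the libraries and was below it in shControl 2, where the ratio of YTHDF2 to YTHDF3 was 0.909. YTHDF1 spans chr20:63195429-63216139 on the minus strand of hg38, and YTHDF2 spans chr1:28736621-28769775 on the plus strand.

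**Figure D2:**
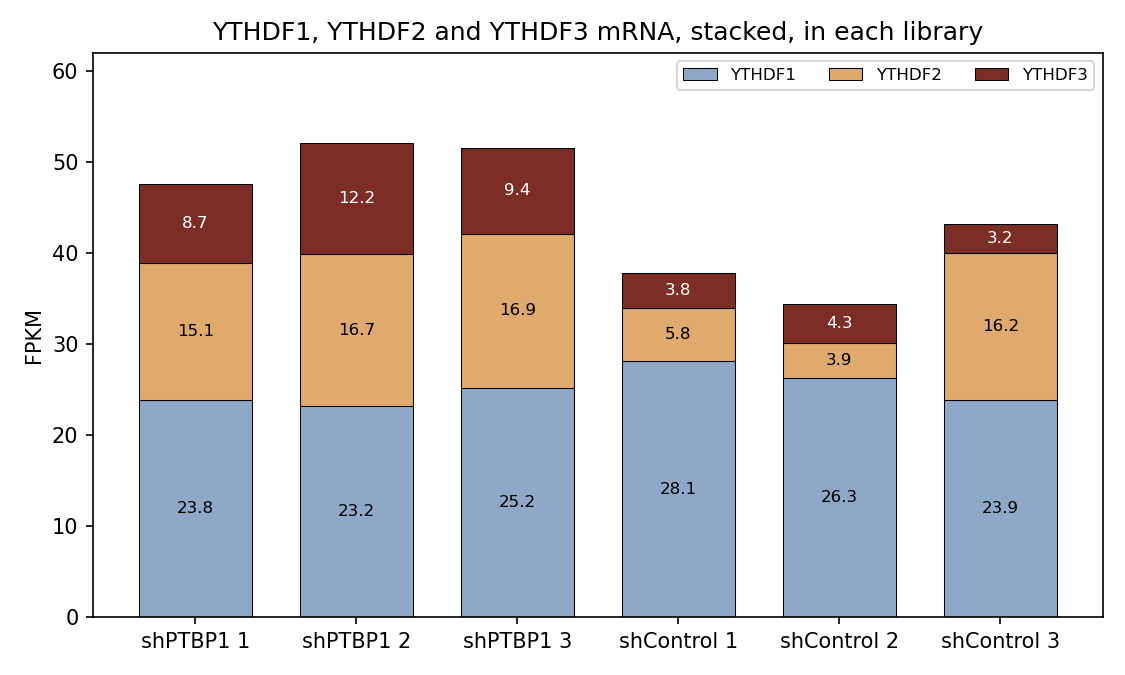
FPKM of YTHDF1, YTHDF2 and YTHDF3 stacked in each of the 3 shPTBP1 and 3 shControl libraries, with the value of each paralog in its segment. The YTHDF3 segment is larger in each shPTBP1 library, the YTHDF2 segment is small in shControl 1 and 2 (5.84 and 3.89 FPKM), and the YTHDF1 segment stays between 23.2 and 28.1 FPKM.

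YTHDC1, the nuclear reader that acts in splicing and export, had 7.13, 7.54 and 8.40 FPKM in shPTBP1 1, 2 and 3, against 10.5, 9.28 and 7.00 FPKM in shControl 1, 2 and 3. Here shControl 1 and 2 were the 2 highest libraries and shControl 3 the lowest, and the log2 fold change was -0.19 ± 0.17. Without shControl 3 it was -0.35 ± 0.12 (unadjusted p = 0.0266, adjusted p = 0.231, edgeR). YTHDC2, a helicase known for its role in meiosis, had 6.80, 6.95 and 6.01 FPKM in shPTBP1 and 7.12, 7.77 and 6.10 FPKM in shControl. Its number-3 library was the lowest in each group, and the log2 fold change was -0.06 ± 0.13, which became 0.020 without shControl 2. YTHDC1 lies at chr4:68310387-68350089 on the minus strand of hg38 and YTHDC2 at chr5:113513694-113595285 on the plus strand. For the 8 members other than YTHDF2 and YTHDF3, log2 fold changes lay between -0.19 and 0.18 with adjusted p between 0.972 and 0.997 (edgeR).

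**Figure D3:**
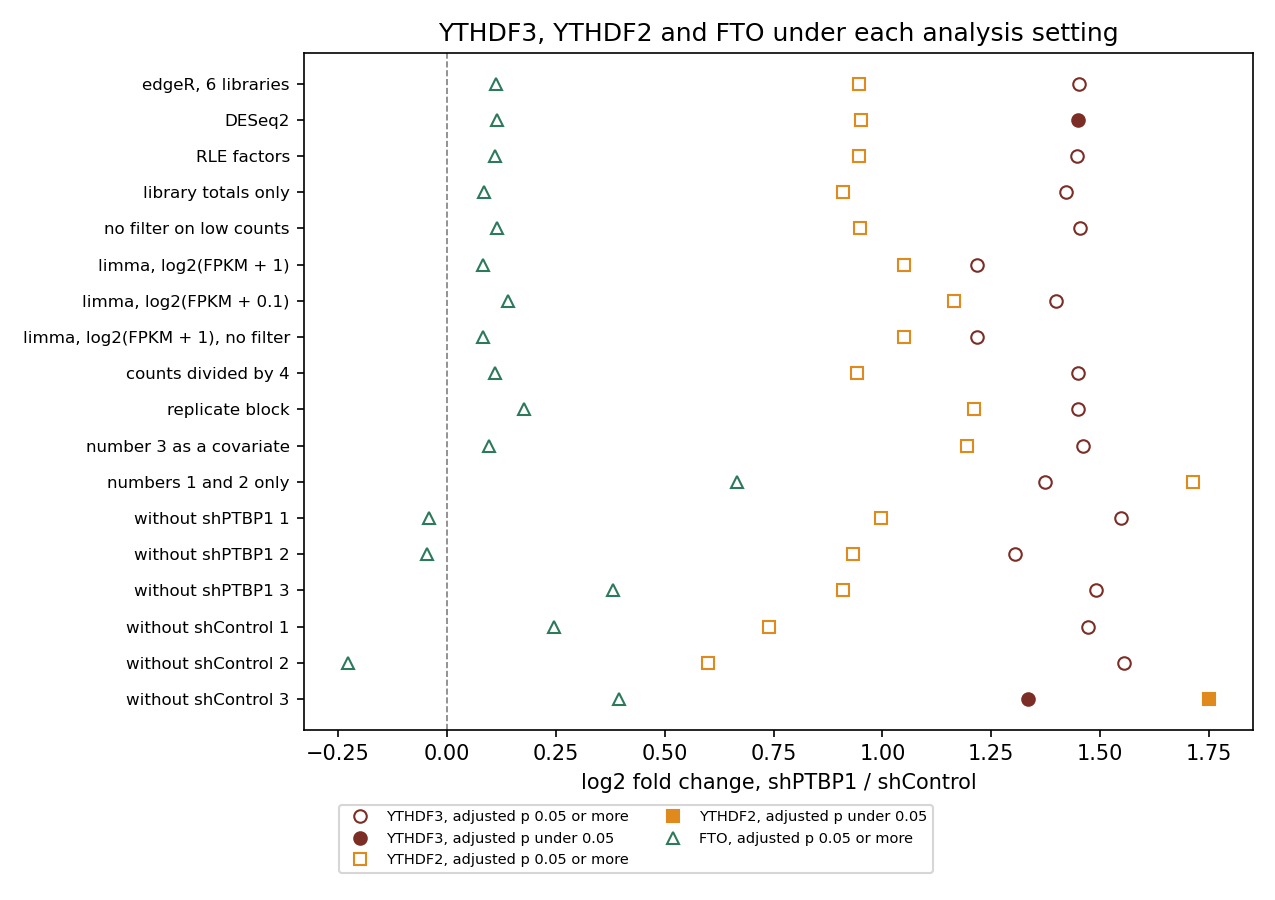
Log2 fold change, shPTBP1 over shControl, of YTHDF3 (circles), YTHDF2 (squares) and FTO (triangles) under the main edgeR fit and 17 alternatives, filled where the adjusted p was under 0.05. YTHDF3 stays between 1.22 and 1.55, YTHDF2 ranges over 0.60 to 1.75 and FTO over -0.23 to 0.67, and the filled points are YTHDF3 with DESeq2 and YTHDF3 and YTHDF2 without shControl 3.

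Set against other genes, YTHDF2, YTHDF3 and FTO varied widely over the 6 libraries. The highest and lowest library differed 4.47-fold in CPM for YTHDF2, 3.92-fold for YTHDF3 and 2.90-fold for FTO. Of the 11986 genes with a mean of at least 1 FPKM, 3.50%, 4.47% and 8.30% had a ratio at least as large. These 3 members exceeded 2-fold, as did 20.7% of those genes, and the median gene differed 1.48-fold. For YTHDF3 the ratio includes the group difference on which the set was chosen, so its place among all genes is no separate evidence. Within groups YTHDF3 had 64.4 to 89.3 CPM in shPTBP1 and 22.8 to 31.1 CPM in shControl. METTL3 (1.19-fold), YTHDF1 (1.22-fold), WTAP (1.28-fold) and YTHDC2 (1.30-fold) were among the steadier transcripts, as 91.1%, 87.7%, 77.9% and 75.6% of the genes varied at least as much. ALKBH5 (1.42-fold), METTL14 (1.54-fold) and YTHDC1 (1.55-fold) were near the median. The 3 variable members did not share a pattern, because YTHDF3 followed the group labels, YTHDF2 was low in shControl 1 and 2, and FTO was low in shPTBP1 3 and shControl 2.

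In FPKM, which is per length of transcript, the order of the members in shPTBP1 was ALKBH5 (25.1 ± 3.48), YTHDF1 (24.1 ± 1.05), YTHDF2, METTL3 (10.2 ± 0.680), YTHDF3, YTHDC1 (7.69 ± 0.648), WTAP (6.59 ± 0.646), YTHDC2 (6.59 ± 0.505), METTL14 (2.44 ± 0.248) and FTO (2.30 ± 0.832; SD, n = 3 each). The ranges of neighbours overlapped for ALKBH5 and YTHDF1, METTL3 and YTHDF3, YTHDC1 and WTAP, WTAP and YTHDC2, and METTL14 and FTO. In shControl the order was YTHDF1 (26.1 ± 2.13), ALKBH5 (23.6 ± 2.79), METTL3 (11.04 ± 1.17), YTHDC1 (8.93 ± 1.79), YTHDF2, YTHDC2 (7.00 ± 0.842), WTAP (6.66 ± 1.05), YTHDF3, METTL14 (2.2 ± 0.50) and FTO (2.17 ± 1.03; SD, n = 3 each). There, only the steps from ALKBH5 to METTL3, from WTAP to YTHDF3 and from YTHDF3 to METTL14 were free of overlap. YTHDF3 had rank 5 in shPTBP1 and rank 8 in shControl, and YTHDF2 had rank 3 in shPTBP1 and rank 5 in shControl.

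The genes with profiles most like YTHDF3 over the 6 libraries were PSCA, SDC3, COCH, CSPG4 and TSPAN8. Likeness was the root-mean-square distance between log2(CPM + 1) values centred on each gene's mean, computed against 11985 genes with a mean of at least 1 FPKM, and these 5 had distances of 0.179 to 0.299. PSCA, a GPI-anchored surface antigen, had 13.9, 15.1 and 12.8 CPM in shPTBP1 1, 2 and 3, against 6.25, 6.84 and 4.54 CPM in shControl 1, 2 and 3. Like YTHDF3 it was highest in number 2 of each group. SDC3, a heparan sulfate proteoglycan, had a log2 fold change of 1.05, and COCH, a secreted matrix protein, had 1.49. CSPG4, a membrane proteoglycan, had a log2 fold change of 0.92 and the tetraspanin TSPAN8 had 1.66. The adjusted p (edgeR) of these genes was 0.140 for TSPAN8, 0.166 for COCH, 0.202 for PSCA, 0.257 for CSPG4 and 0.336 for SDC3, so 0 of 5 passed the threshold, and because they were picked by likeness to YTHDF3, their differences are no separate evidence. No member was among the nearest genes, the closest being ALKBH5 at rank 1645.

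Genes beside the members were examined because counting by strand is not stated in the sources used here, although the library kit marks the second strand. YTHDF3-AS1 is an antisense RNA whose gene begins 110 bases before YTHDF3 on the opposite strand, so the genes run apart without overlap. YTHDF3-AS1 had 27, 39 and 42 estimated counts in shPTBP1 1, 2 and 3, against 83, 88 and 114 in shControl 1, 2 and 3. It was thus lower in each shPTBP1 library, at a log2 fold change of -1.43 (unadjusted p = 0.00586, adjusted p = 0.565, edgeR). Its level was low throughout, at 0.340 to 0.583 CPM in shPTBP1 and 1.02 to 1.61 CPM in shControl. Groups did not overlap in CPM for 11.9% of all genes. YTHDF3-AS1 was named after its values had been seen. SOD2, the mitochondrial superoxide dismutase, overlaps WTAP by 19602 bases on the opposite strand. SOD2 had 22.4, 24.3 and 39.9 CPM in shPTBP1 1, 2 and 3 and 24.1, 26.9 and 54.1 CPM in shControl 1, 2 and 3, and like WTAP it was highest in number 3 of each group. Another entry named SOD2 overlaps WTAP by 30735 bases and had at most 0.0555 CPM in any library. TOX4 overlaps METTL3 by 1043 bases and RPGRIP1L overlaps FTO by 2198 bases, at 63.0 to 89.4 CPM and 15.8 to 20.2 CPM, so reads of these pairs cannot be assigned with certainty. YTHDF2, YTHDC1 and YTHDC2 had no other gene within 5000 bases. The pseudogenes YTHDF2P1, WTAPP1, YTHDF1P1 and FTOP1 had at most 0.292 CPM in any library.

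Among the remaining pathway genes tested, log2 fold changes lay between -0.61 and 0.53, with standard errors of 0.09 to 1.27 (edgeR). Where the standard error was large, a difference could not be told from none. In all, 53 genes in 5 lists were examined, 52 were tested, and 0 passed the adjusted threshold in edgeR (adjusted p between 0.873 and 0.998), beside 0.0309% of all genes. At an unadjusted p under 0.05 there were 2 of 52 in edgeR, beside 5.69% of all genes. With DESeq2, 0 of 52 passed the adjusted threshold, beside 0.753% of the 22297 genes with an adjusted p. An unadjusted p under 0.05 was found for 3, beside 4.42% of the 30866 genes with a p-value. With limma on log2(FPKM + 1) these counts were 0 and 2 of the 49 genes kept by its filter, beside 0.0749% and 6.84% of all genes. In the list of other writers, 11 of 11 genes were tested, the median log2 fold change was -0.06, and 0 reached an unadjusted p of 0.05 in edgeR. The smallest p-values there were those of METTL16, a methyltransferase for small nuclear and selected messenger RNAs (-0.61 ± 0.30), RBM15, which guides the complex to its sites (0.33 ± 0.21), VIRMA, its large scaffold (-0.15 ± 0.11), and ZCCHC4, a ribosomal RNA methyltransferase (-0.20 ± 0.15). Among 7 other ALKBH dioxygenases the median was -0.22. ALKBH3, a repair enzyme for alkylated nucleic acids, had 16.1, 14.4 and 17.1 CPM in shPTBP1 1, 2 and 3, against 20.7, 17.7 and 23.4 CPM in shControl 1, 2 and 3 (log2 fold change -0.38 ± 0.16, unadjusted p = 0.0481, adjusted p = 0.876, edgeR). ALKBH1 (0.24 ± 0.13), ALKBH8 (-0.23 ± 0.15) and ALKBH6 (-0.23 ± 0.17) followed by p-value. The groups did not overlap in CPM for 3 of these 7 genes, beside 11.9% of all genes. ALKBH3 and ALKBH8 were lower and ALKBH1 higher in every shPTBP1 library. This list had the most such genes. The count was 0 of 11 other writers, 1 of 13 other m6A-binding proteins, 1 of 13 tested partners of YTH proteins and 1 of 8 genes listed for S-adenosylmethionine supply.

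Other m6A-binding proteins, 13 of 13 tested, had a median log2 fold change of 0.01 and 0 at an unadjusted p under 0.05 in edgeR. IGF2BP1 (0.21 ± 0.15) and IGF2BP2 (0.30 ± 0.31), which stabilise bound messages, HNRNPC (0.13 ± 0.10), which binds sites that m6A opens, and ELAVL1 (-0.17 ± 0.15), an RNA-stabilising protein, had the smallest p-values. Partners and effectors of YTH proteins, 13 of 14 tested with RBM46 at 0 in every library, had a median of -0.09. RIDA, the bridge between YTHDF2 and the RNase P/MRP endonuclease, had 27.8, 20.1 and 18.7 CPM in shPTBP1 1, 2 and 3, against 29.6, 31.7 and 28.4 CPM in shControl 1, 2 and 3 (log2 fold change -0.43 ± 0.18, unadjusted p = 0.0465, adjusted p = 0.873, edgeR). RIDA was lower in each shPTBP1 library, by little in shPTBP1 1. POP1, a subunit of that endonuclease (-0.39 ± 0.27), and the translation initiation subunits EIF3B (-0.15 ± 0.10) and EIF3A (-0.19 ± 0.14) came next. The 8 genes listed for supply of S-adenosylmethionine, the methyl donor of the writers, had a median of -0.05. Named by p-value were AHCYL2 (0.42 ± 0.19), MTR (-0.40 ± 0.19), AHCYL1 (-0.20 ± 0.14) and the synthetase MAT2A (-0.13 ± 0.11). AHCYL1 and AHCYL2 were listed as relatives of AHCY, and a part of theirs in that supply was not examined. The medians of all 5 lists and of the members are descriptions beside the median of -0.01 over all genes tested.

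**Figure D4:**
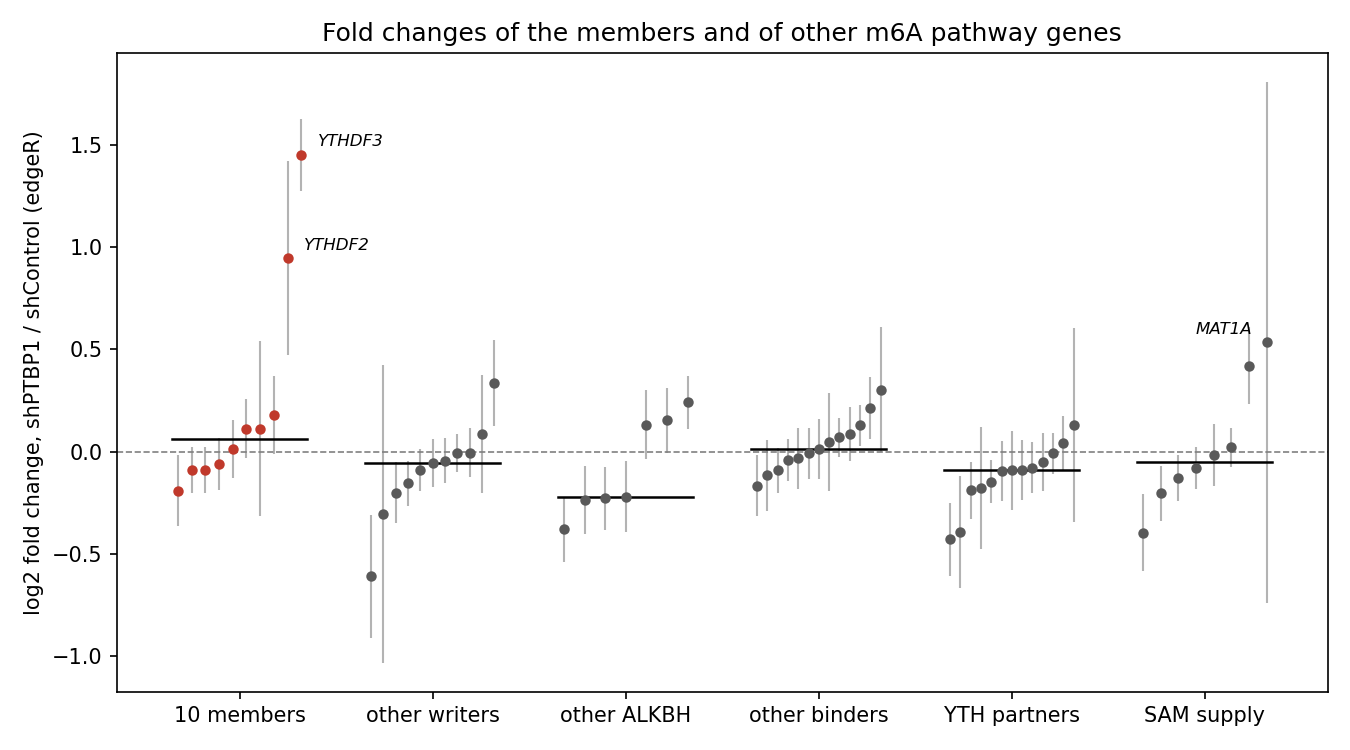
Log2 fold change, shPTBP1 over shControl (edgeR), of the 10 members (red) and of the genes tested in 5 further m6A pathway lists (grey), with standard errors as thin lines and the median of each list as a bar. YTHDF3 (1.45) and YTHDF2 (0.95) lie above the other members, which stay between -0.19 and 0.18, and the list medians lie between -0.22 and 0.01.

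Of the members, 9 matched the RefSeq promoter table, with 11 windows, and YTHDF3 did not. GC content of these windows was 53.0% to 77.3%, against a median of 58.7% over 35116 windows, and they held 13 to 50 CpG dinucleotides, against a median of 14. The highest values on both measures were those of the YTHDF1 window printed above, with the YTHDF2 window above at 73.0% GC and 43 CpG. Another YTHDF2 window, starting further upstream, had 60.0% GC and 16 CpG and held none of the motifs searched. The CCAAT box (CCAAT) was present on either strand in 6 of 11 windows, against 34.6% of all windows, at position -203 in YTHDF2 and at position 19 in YTHDF1, where the transcription start is position 1 and the base before it is -1. A cyclic AMP response element (TGACGTCA) was found in YTHDC1 at -97 and YTHDC2 at -18, and in 1.85% of all windows. An ETS-type motif (CCGGAAG) was found in METTL3 at -130 and in METTL14 at -36 and -4, and in 10.3% of all windows. These matches describe letters in the windows, and no binding was measured.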

How the data were processed

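MHCC97H RNA from 3 shPTBP1 and 3 shControl libraries was analysed from 1 table of FPKM and counts per gene. The authors prepared poly(A) RNA libraries and, in their processing notes, listed cutadapt 1.9, FastQC, HISAT2 2.2.1 and StringTie with build hg38; settings are not given in the sources used here. The counts deposited by the authors were treated as estimated counts and rounded, since multiples of 4 made up 32.5% to 34.4% of the values of 1 to 40 in every library, which leaves the number of fragments unknown. FPKM values are as deposited, normalized by the authors for length and depth.

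The groups were compared in edgeR 4.0.16, run in R 4.3.3, with quasi-likelihood F tests on TMM-scaled counts that passed its low-count filter and no covariates. Benjamini-Hochberg adjustment covered all 19393 genes. Standard errors are the absolute log2 fold change divided by the square root of F. Alternatives were DESeq2 1.42.0, limma 3.58.1 on log2(FPKM + 1) or log2(FPKM + 0.1), other scalings and filters, counts divided by 4, a replicate block, number 3 as a covariate, numbers 1 and 2 only, and leaving out each library. The edgeR step was run on simulated data as a check of the code only. No simulated library departed from its group, so that run cannot speak to the calls made here. Tables and figures were made in Python 3.11.15 (pandas 2.3.3, numpy 2.4.6, matplotlib 3.10.9). Overlaps were computed from the gene positions deposited by the authors, and GENCODE release 29 was used only to compare the positions of the members and PTBP1. Deposited bounds of YTHDF1, YTHDC2, METTL3, METTL14 and FTO differed from that release, and the gene positions given above are the deposited ones.

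All 10 members and PTBP1 were named, with up to 4 genes of each pathway list by smallest p-value, any past the adjusted threshold, and the 5 genes most like YTHDF3. Members and lists were chosen with earlier results of these data known. Splicing and isoforms were not analysed here, since values are per gene.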

Additional observations from a re-analysis of the deposited data

How the results depend on the processing

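The count of genes past an adjusted p of 0.05, 6 in edgeR, was 168 with DESeq2, 3 with limma without a filter, 3 with number 3 as a covariate, 63 within numbers 1 and 2, and 2 to 136 when each library was left out in turn, the highest without shControl 3. The members past it, 0 in edgeR, were 1 with DESeq2 and 0 to 2 when each library was left out, and 1 member stood at an unadjusted p under 0.05. The members at an unadjusted p under 0.05, 1 of 10 in edgeR beside 5.69% of all genes, were 2 with DESeq2 (4.42% of all genes), 2 with limma on log2(FPKM + 1) (6.84%), 2 with number 3 as a covariate (6.63%), 3 within numbers 1 and 2 (17.7%), and 1 to 3 when each library was left out, the 3 being without shControl 3 (16.6%). YTHDF3 kept its direction under all 17 alternatives, at a log2 fold change of 1.45 and past the threshold with DESeq2, and at 1.30 to 1.55 when each library was left out. YTHDF2 kept its direction too, at 0.60 without shControl 2 and up to 1.75 without shControl 3. Signs turned for WTAP with library totals (-0.019) and with limma (-0.0087 at a pseudocount of 1, with and without the filter, and -0.0091 at 0.1), and when libraries were left out for WTAP (-0.078 to 0.14), FTO (-0.23 to 0.40) and YTHDC2 (-0.16 to 0.020). The YTHDF3 share differed by 14.0 percentage points in CPM in place of 10.04 in FPKM, and by 8.35 to 11.3 when each library was left out. The all-gene median, -0.013 in edgeR, was furthest from 0 with library totals, at -0.045.

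Same-numbered libraries deviated together at correlations of -0.06, 0.12 and 0.05, and differently numbered ones at -0.12 to 0.06. Single features did go with the number, as red-cell markers were lowest in number 3 of each group. The labels do not say what a number shares, so the main fit did not pair libraries by number. With the replicate block the count over all genes was 0 in edgeR, with 987 genes (5.09%) at an unadjusted p under 0.05, and 2 members were at an unadjusted p under 0.05, YTHDF3 (log2 fold change 1.45, adjusted p = 0.416) and YTHDF2 (1.21, adjusted p = 0.956). The causes of these shifts were not tested.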

Other observations

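Outside the members, a few genes of the pathway lists also had levels that went with single libraries or library numbers rather than with the groups. They were picked after their values were seen, and 5 of the 49 listed genes with a mean of at least 1 FPKM differed at least 2-fold between their highest and lowest library, against 20.7% of all such genes. CBLL1, a subunit of the methyltransferase complex also known as HAKAI, had 5.90, 18.5 and 6.85 CPM in shPTBP1 1, 2 and 3 and 6.04, 27.3 and 5.22 CPM in shControl 1, 2 and 3. CNOT8, a deadenylase of the CCR4-NOT complex, had 79.0, 132 and 45.5 CPM in shPTBP1 and 62.1, 127 and 45.6 CPM in shControl. Both genes were highest in number 2 of each group, as YTHDF3 was within its groups. METTL16 was highest in shControl 3, with 39.9, 34.0 and 23.1 CPM in shPTBP1 and 41.0, 36.4 and 70.6 CPM in shControl. METTL4, a methyltransferase for small nuclear RNA, was lowest in shControl 1, with 18.2, 16.0 and 19.7 CPM in shPTBP1 and 9.83, 21.3 and 19.7 CPM in shControl. POP1 had 27.1, 33.6 and 37.1 CPM in shPTBP1 and 54.8, 47.3 and 26.3 CPM in shControl, so that, as for YTHDC1, shControl 1 and 2 were highest and shControl 3 lowest.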
